A study of Mus musculus with 18 samples.

Results

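The comparison described here is the step from 24 h to 48 h in control embryoid bodies, that is, differentiating mouse embryonic stem cells that received no thalidomide. It uses the 3 control arrays of 48 h and the 3 control arrays of 24 h, 6 of the 18 arrays of the series. The rule that picked the arrays used labels only. However, the comparison, its members and the gene lists were chosen with earlier results of these data known. Embryoid bodies are cell aggregates grown in suspension, where stem cells exit pluripotency and begin to make cells of the germ layers. The cells are of strain C57BL/6. Per the labels' treatment protocol, cultures were given 0.25% DMSO as vehicle or 0.25 mM thalidomide from day 3 of the embryoid body stage. In the series text the controls are unexposed cells, and their source names give the hours since embryoid bodies were formed, so the labels do not settle whether the control cultures held vehicle or on which day their hours start. Besides these 6 arrays, the 3 control arrays of 72 h and the 3 thalidomide arrays each of 24 h and 48 h are used below for comparison. The 3 arrays of a group are called biological replicates in the labels, which do not say whether they were separate differentiations. P-values measure the spread between arrays within groups, estimated for each gene from all 18 arrays, the 3 thalidomide arrays of 72 h included.

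In the mouse embryo, cells of the epiblast, the pluripotent layer after implantation, pass through the primitive streak under Nodal, Wnt and FGF signals and become mesoderm or endoderm. The T-box factor Eomes and the homeobox factor Mixl1 mark cells in the streak, and Nanog and Pou5f1 (Oct4) mark cells that have not yet left pluripotency. Mesoderm that leaves the streak under BMP signals forms the lateral plate and the heart fields, which switch on Hand1, Isl1 and Tbx20 before the genes of the contractile apparatus.

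Between 24 h and 48 h, 24 of 35 genes of the primitive streak, 9 of 17 of the epiblast and 8 of 28 of pluripotency fell. Of the genes of the BMP pathway 16 of 28 rose, as did 11 of 23 of the lateral plate, 14 of 30 of the matrix and 13 of 22 imprinted and insulin-like growth genes. Of 22180 genes, 3023 passed an adjusted p under 0.05 (13.6% of the genes tested), 1536 higher at 48 h (6.93%) and 1487 lower (6.7%). A change of at least 1.5-fold was reached by 473 of the higher and 276 of the lower genes, and a change of at least 2-fold by 138 and 83. Without regard to the test, the 3 arrays of 48 h lay entirely above or below those of 24 h for 7253 genes (32.7%). The median change over all genes was -0.02 on the log2 scale. Adjusted p-values are from limma with the Benjamini-Hochberg method over all genes, log2 changes are given ± standard error (SE), and levels are log2 signals as mean ± SD with n = 3 arrays. The words rose and fell are used of genes that passed this test. Counts of list members that passed are to be read beside the 13.6% of all genes.

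**Figure D1:**
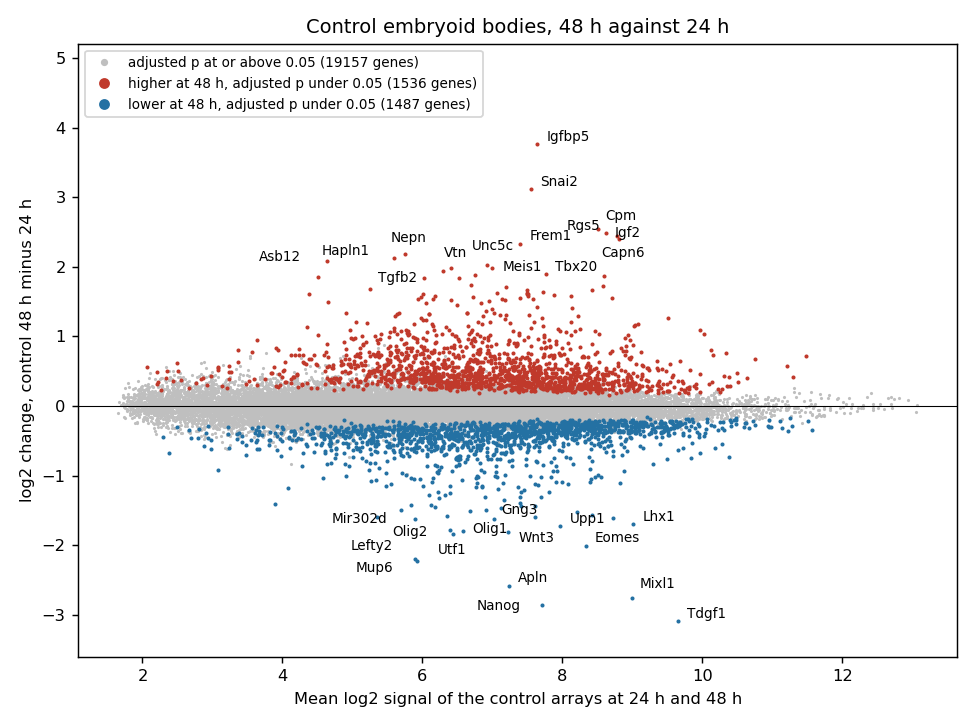
Log2 change from 24 h to 48 h in control arrays (vertical axis) against the mean log2 signal of the 6 arrays (horizontal axis), 1 point per gene. Red and blue points passed an adjusted p under 0.05, and the named genes are the 15 largest rises, led by Igfbp5 at 3.76, and the 15 largest falls, led by Tdgf1 at -3.09.

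Arrays of the same time correlated across genes at r = 0.994 to 0.995 and arrays of different times at 0.985 to 0.99. The smallest SD of the difference between 2 arrays of the same time was 0.195, so none was a copy of another. Array medians ran from 5.367 to 5.42. The deposited values had been normalized to like distributions, so array medians and single bright genes cannot report how much RNA was loaded. Genes of the cytoplasmic ribosome had a median change of -0.09 (67 genes, 0 up and 7 down). Small nucleolar RNAs had one of 0.00 (73 genes, 1 up and 7 down). These values do not measure RNA quality, for which no value was used here. Gapdh was at 12.52 ± 0.07 at 24 h and 12.49 ± 0.02 at 48 h. In embryoid bodies, which hold mixed cells, fewer cells of a type and less RNA per cell cannot be told apart.

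The markers used to check this step were the pluripotency factor Nanog and the streak factors Mixl1 and Eomes. Nanog read 8.93, 9.12 and 9.35 in the 3 arrays of 24 h, 6.35, 6.29 and 6.20 at 48 h, and 4.45, 5.05 and 4.96 at 72 h. All arrays of 48 h lay below all of 24 h and above all of 72 h. The change to 48 h was -2.85 ± 0.25 (adjusted p = 8.8e-07), a level 7.23-fold lower. Mixl1 read 10.47, 10.44 and 10.25 at 24 h and 7.26, 7.54 and 8.06 at 48 h, a change of -2.76 ± 0.21 (adjusted p = 2.86e-07). Eomes read 9.35, 9.34 and 9.31 at 24 h and 7.25, 7.22 and 7.53 at 48 h, from a mean of 9.34 ± 0.02 to 7.33 ± 0.17 (adjusted p = 2.27e-06). The arrays of 24 h lay close together for Eomes (SD 0.02), and the arrays of 48 h were further apart for both streak factors, with the third array the highest each time. By 72 h Mixl1 was at 5.86 ± 0.23 and Eomes at 5.58 ± 0.20.

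Promoters are shown for 3 genes that head the falling pluripotency genes, the falling Wnt targets and the rising BMP targets. Each was searched for 1 motif that was picked for that gene. The sequences are the 250 bases before the start in RefSeq's annotation of GRCm38.p6, written 5′ to 3′ on the gene's strand. Capitals mark matches on either strand to 1 motif per gene. For Nanog (chr6:122707315-122707564, plus strand, the more downstream of 2 listed starts) the motif is the composite site of POU and SOX factors: TTTGCAT, any base, ACAA, any base and G. For Sp5, a zinc finger factor that Wnt signals switch on (chr2:70474673-70474922, plus strand), it is the TCF/LEF core CTTTGA. For Id2, an inhibitor of basic helix-loop-helix factors that BMP signals switch on (chr12:25096093-25096342, minus strand), it is GGCGCC, a palindrome bound by SMAD proteins.
Nanog: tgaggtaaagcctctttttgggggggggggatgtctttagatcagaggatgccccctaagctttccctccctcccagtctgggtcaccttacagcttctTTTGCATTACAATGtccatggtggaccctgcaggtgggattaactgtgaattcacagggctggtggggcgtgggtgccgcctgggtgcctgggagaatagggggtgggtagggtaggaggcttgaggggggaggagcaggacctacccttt
Sp5: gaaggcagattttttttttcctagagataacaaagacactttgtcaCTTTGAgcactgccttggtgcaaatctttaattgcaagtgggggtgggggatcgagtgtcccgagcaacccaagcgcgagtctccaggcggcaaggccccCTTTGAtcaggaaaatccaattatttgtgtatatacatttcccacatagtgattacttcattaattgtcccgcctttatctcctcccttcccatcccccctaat
Id2: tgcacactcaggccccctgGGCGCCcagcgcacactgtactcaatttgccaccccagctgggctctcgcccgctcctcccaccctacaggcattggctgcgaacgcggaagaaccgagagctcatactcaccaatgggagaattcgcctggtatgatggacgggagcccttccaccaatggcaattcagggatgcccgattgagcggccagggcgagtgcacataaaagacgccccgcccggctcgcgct
The composite site starts 151 bases before the Nanog start. Of the 32851 promoter windows of this length, 3 hold such a match (0.00913%). The windows are counted per listed start and include that of Nanog. Sp5 has 2 matches, starting 204 and 104 bases before its start, where 13.8% of windows hold the core. Id2 has 1, starting 231 bases before its start, where 9.59% of windows hold the palindrome. A match is a run of letters, and these arrays did not measure whether any factor was bound there.

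Pluripotency genes fell in part. Of 28 measured members of the naive and core pluripotency list, 8 fell and 0 rose, with a median change of -0.12 beside -0.02 over all genes. Utf1, a chromatin factor of pluripotent cells, read 7.12, 7.26 and 7.67 at 24 h and 5.47, 5.25 and 5.82 at 48 h, a change of -1.84 ± 0.22 (adjusted p = 3.04e-05). The RNA-binding protein gene L1td1 had a change of -1.59, from 8.41 ± 0.24 to 6.82 ± 0.20, and Dppa2 fell by 0.94. Pou5f1 went from 6.85 ± 0.08 to 6.12 ± 0.13, a change of -0.74 ± 0.09 (adjusted p = 3.57e-05). Dnmt3l, a cofactor of the de novo DNA methyltransferases, had a change of -0.62, Dppa4 one of -0.50 and Klf5 one of -0.42. The last 2 passed in 7 of 13 and 11 of 14 alternative settings.

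The other 20 members did not pass. Esrrb and Zfp42 (Rex1), genes of the naive state, were at 4.92 ± 0.09 and 6.06 ± 0.27 at 24 h, with changes of -0.07 and -0.39. Others were bright at both times. Sall4, a zinc finger regulator of pluripotency, was at 10.06 ± 0.08 and 9.96 ± 0.02, and the let-7 regulator Lin28a at 9.13 ± 0.13 and 9.24 ± 0.05. Sox2, which pluripotent and neural cells share, had a change of 0.43 ± 0.17 (adjusted p = 0.117).

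Of 17 members of the post-implantation epiblast list 9 fell and 1 rose, and the median change was -0.58. Tdgf1 (Cripto), the Nodal co-receptor, had the largest fall of all genes. It read 11.12, 11.22 and 11.26 at 24 h and 8.09, 7.83 and 8.41 at 48 h, a change of -3.09 ± 0.21 (adjusted p = 8.1e-08) or 8.53-fold. Fgf5, the ligand that marks the formed epiblast, had a change of -1.56 ± 0.19, from 9.20 ± 0.05 to 7.64 ± 0.12, and stood at 5.32 ± 0.39 at 72 h. The kinase gene Pim2 and the zinc finger genes Zic5 and Zic2 had changes of -1.51, -1.21 and -1.05. Dnmt3b, the de novo methyltransferase of the epiblast, went from 10.74 ± 0.12 to 10.02 ± 0.05 (adjusted p = 5.49e-05). Sox4, a factor of progenitor cells in many tissues, was the member that rose (0.60 ± 0.08). Among 11 enzymes that write, read or oxidise DNA methylation, Dnmt3b, Dnmt3l and Tet1 fell, while Tet3 and Tet2 rose by 0.60 and 0.47 on the log2 scale. Tet1, at -0.26, passed in 10 of 14 alternative settings.

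The cluster of microRNA genes that is most typical of primed pluripotent cells fell as well. Mir302d was among the 15 largest falls, and its neighbours Mir302a, Mir302b, Mir302c and Mir367 were looked up after that value was seen. RefSeq places the 5 hairpins within 580 bases on the plus strand, at chr3:127545228-127545807 of GRCm38.p6. The mature 3p sequences that RefSeq's table held are shown because the cluster makes 2 kinds of seed, given in capitals (bases 2 to 8).
miR-302b-3p: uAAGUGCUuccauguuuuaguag
miR-302d-3p: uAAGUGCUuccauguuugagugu
miR-302c-3p: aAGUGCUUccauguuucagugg
miR-367-3p: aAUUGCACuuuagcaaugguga
The seeds of miR-302b-3p and miR-302d-3p are the same, AAGUGCU. The entry of miR-302c-3p begins so that its seed, AGUGCUU, is the same run moved by 1 base. miR-367-3p has another seed, AUUGCAC. The probe sets name the gene and do not tell the mature arm from its precursor.

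Mir302d read 6.68, 6.59 and 6.83 at 24 h, 5.12, 4.95 and 5.17 at 48 h, and 3.68, 3.66 and 3.11 at 72 h. The groups do not overlap, and the change to 48 h was -1.62 ± 0.29 (adjusted p = 0.000927). The others changed by -1.57 (Mir302b), -1.42 (Mir302c), -1.41 (Mir367) and -1.28 (Mir302a), each with all 48 h arrays below all 24 h arrays. Mir290a, of the cluster that naive stem cells use, had a change of -1.07 ± 0.27 (adjusted p = 0.0131), and passed in 10 of 13 alternative settings.

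Genes of the primitive streak and nascent mesoderm are those of cells that pass through the streak or have just left it. Of 35 members 24 fell and 0 rose, and the median change was -0.77 (all genes -0.02). For 26 of the 35 all 48 h arrays lay below all 24 h arrays, and for 1 above, where 32.7% of all genes had no overlap in either direction. Apln, the ligand of the apelin receptor on early mesoderm, read 8.53, 8.38 and 8.67 at 24 h and 6.27, 5.71 and 5.86 at 48 h, a change of -2.58 ± 0.17 (adjusted p = 6.87e-08). Lhx1, a LIM homeobox factor of the streak and anterior mesendoderm, read 9.86, 9.87 and 9.85 and then 8.15, 8.06 and 8.28 (change -1.70 ± 0.13). The paraxial factors Msgn1 and Tbx6 had changes of -1.15 and -1.04, the posterior homeobox factor Evx1 one of -0.98, and the organiser factor Gsc one of -0.69.

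Not all genes seen in the streak fell at this step. Cer1, a secreted inhibitor of Nodal, BMP and Wnt from anterior endoderm, was at 7.66 ± 0.30 at 24 h, 7.84 ± 0.42 at 48 h and 5.96 ± 0.47 at 72 h. Its change to 48 h was 0.19 (adjusted p = 0.711). Sox17, the endoderm factor, was at 8.06 ± 0.03 and 7.97 ± 0.17. In the definitive endoderm list of 14, 4 rose and 2 fell. The falls were Lhx1 and Gsc, which the streak list holds too. Foxa1, a pioneer factor of gut endoderm, went from 8.01 ± 0.06 to 9.04 ± 0.04 (adjusted p = 9.63e-05). Nepn, a proteoglycan gene of foregut, rose from 4.66 ± 0.34 to 6.84 ± 0.44, a change of 2.18 ± 0.25.

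**Figure D2:**
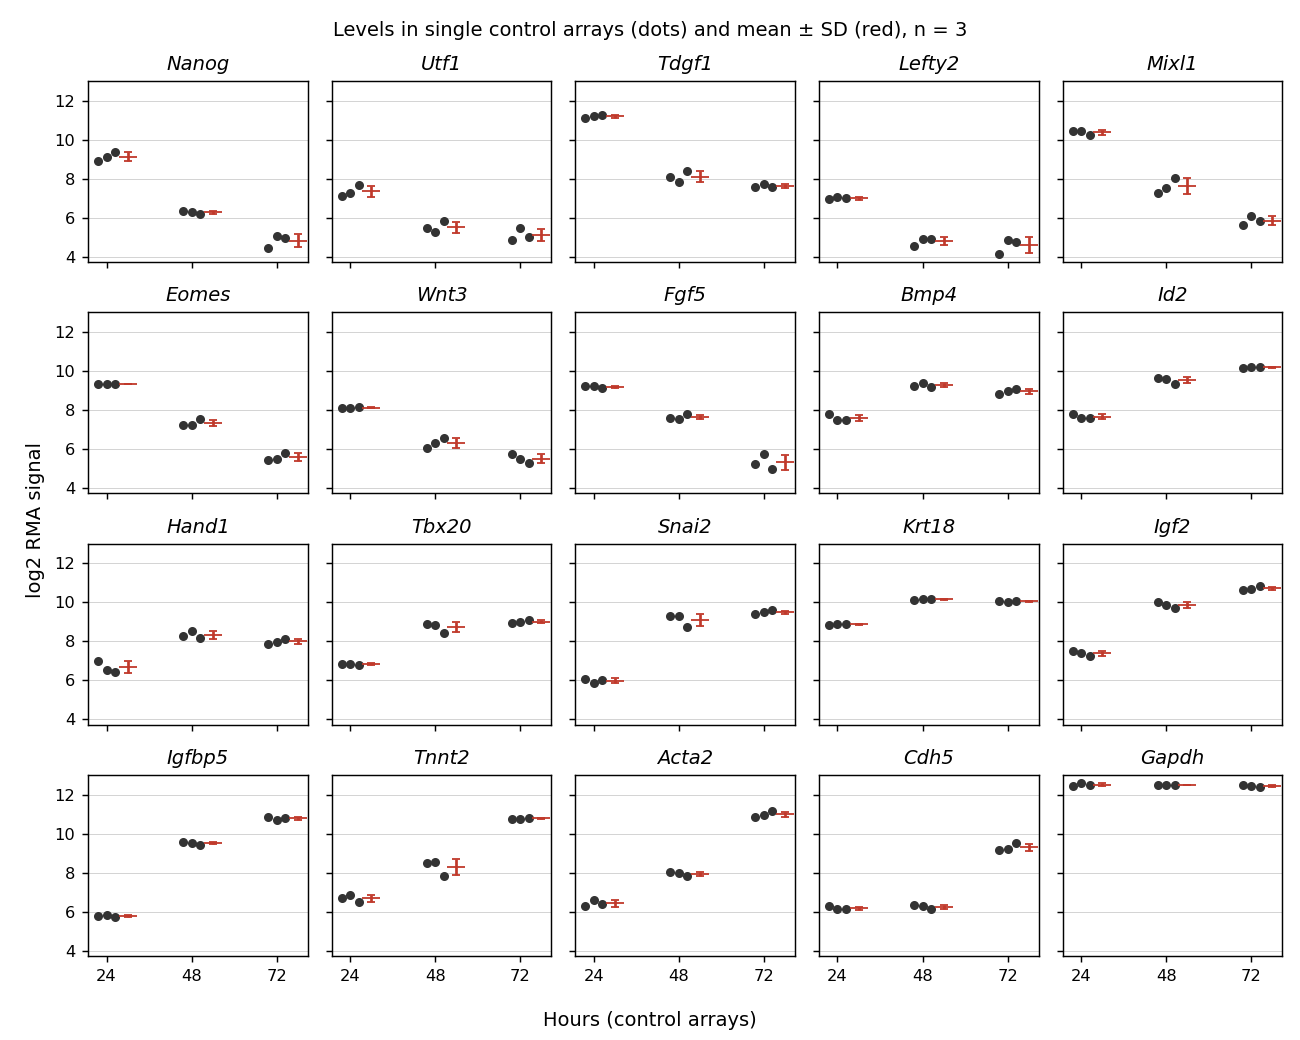
Log2 RMA signal of 20 genes in each control array at 24, 48 and 72 h (dots, 3 arrays per time), with the mean and SD in red. Pluripotency and streak genes step down at 48 h, with Nanog going from 9.13 to 6.28, Bmp4, Id2, Hand1 and Tbx20 step up, Tnnt2 and Acta2 rise at both steps, and Cdh5 is at 6.18 and 6.25 before 9.29 at 72 h.

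Signals of the streak fell together with its factors, by pathway role as follows. Among Wnt ligands and receptors (38 measured, 5 up and 7 down, median change -0.08), 6 of the falls were ligands and all 5 rises were frizzled receptors. Wnt3, the ligand that induces the streak, read 8.13, 8.09 and 8.14 at 24 h and 6.03, 6.33 and 6.58 at 48 h (change -1.80 ± 0.12, adjusted p = 8.1e-08). Wnt8a went from 7.84 ± 0.11 to 6.49 ± 0.17 (adjusted p = 7.35e-06) and Wnt2b had a change of -1.24. The frizzled genes were led by Fzd4, from 6.22 ± 0.03 to 7.59 ± 0.26 (change 1.37 ± 0.20), and Fzd2 (0.85). Fzd9 fell by 0.44 on the log2 scale and passed in 11 of 14 alternative settings.

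Of 25 Wnt targets and antagonists, 5 fell and 2 rose. Sp5, whose promoter is shown above, read 7.86 ± 0.08 at 24 h and 6.40 ± 0.15 at 48 h (change -1.46 ± 0.10, adjusted p = 9.28e-08). Lef1, the nuclear effector, had a change of -0.66 and Axin2, the negative feedback gene, one of -0.49. Lgr5, a receptor of R-spondins, rose by 0.92 on the log2 scale and was back at 6.31 ± 0.14 at 72 h, from 6.39 ± 0.19 at 24 h and 7.31 ± 0.14 at 48 h. Sfrp1, a secreted Wnt binder, rose by 0.58. Dkk1, another antagonist, had a change of -0.07 that did not pass (adjusted p = 0.68).

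In the Nodal and TGF-beta list (29 measured, median change 0.05), 8 members fell and 8 rose. The members that fell include Nodal itself, from 7.66 ± 0.24 to 6.17 ± 0.10 (adjusted p = 9.31e-07), its co-receptor Tdgf1, its inhibitor Lefty2, and Fst, which binds activins. Lefty2 read 6.938, 7.068 and 6.997 at 24 h and 4.546, 4.933 and 4.919 at 48 h, a change of -2.20 ± 0.18. Fst read 9.54, 9.53 and 9.54 and then 7.84, 8.04 and 7.89. The members that rose were led by the TGF-beta branch: the ligand Tgfb2 went from 5.32 ± 0.16 to 7.26 ± 0.23 (change 1.94 ± 0.18, adjusted p = 1.33e-06). Ltbp1, which stores latent TGF-beta in the matrix, rose by 1.03, the secreted target Tgfbi by 0.97 and the signal transducer Smad3 by 0.64 on the log2 scale. Not every gene tied to TGF-beta rose. Its co-receptor Eng had a change of -1.15, and Skil, another member that fell, one of -0.58.

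FGF ligands and their feedback genes fell in part. Of 30 members of the FGF and ERK list 9 fell and 5 rose, with a median change of -0.22. Besides Fgf5, the streak ligand Fgf8 had a change of -1.31 ± 0.14 (adjusted p = 8.66e-06), the ETS factor Etv1 one of -1.30, and the feedback inhibitors Spry4 and Dusp6 changes of -1.02 and -0.83. Other members rose, among them Flrt3 (0.57), Spry1 (0.51), which is of the same family as Spry4, and Phlda1 (0.42). Receptor genes did not move with these ligands. Fgfr2 went from 5.94 ± 0.35 to 7.51 ± 0.18 (change 1.57 ± 0.15, adjusted p = 2.27e-06) and Fgfr1 from 8.01 ± 0.06 to 8.01 ± 0.05. Of 21 Notch pathway genes 5 fell and 2 rose: the ligands Dll3 (-1.15) and Jag2 (-0.80) were the largest falls, and the receptor Notch2 rose (0.43 ± 0.06).

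The BMP pathway rose. Of 28 members 16 rose and 1 fell, with a median change of 0.34. The ligand Bmp4 went from 7.59 ± 0.17 at 24 h to 9.26 ± 0.10 at 48 h, with no overlap between the times (change 1.67 ± 0.16, adjusted p = 2.61e-06). The ligand Bmp5 went from 6.90 ± 0.14 at 24 h to 8.54 ± 0.04 at 48 h (change 1.65 ± 0.12). Targets rose with them. Id2 went from 7.66 ± 0.12 to 9.53 ± 0.16 (change 1.87 ± 0.09, adjusted p = 1.12e-09), and Id1 and Id3 had changes of 1.00 and 0.80. The inhibitory transducer Smad6 rose by 0.89 and the homeobox target Msx2 by 0.65. Smad1, which carries the signal to the nucleus, was the member that fell (-0.37 ± 0.07). The ligand Bmp7 was at 9.08 ± 0.02 and 8.96 ± 0.20 (adjusted p = 0.52).

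Regulators of the lateral plate and heart fields rose, with 11 of 23 members up and 0 down (median change 0.33). Tbx20, a T-box factor of heart progenitors, read 6.86, 6.84 and 6.77 at 24 h and 8.88, 8.84 and 8.43 at 48 h, a change of 1.89 ± 0.17 (adjusted p = 1.3e-06). The myocyte factor Mef2c went from 5.11 ± 0.24 to 6.95 ± 0.35. Hand1 went from 6.66 ± 0.31 to 8.32 ± 0.18, and the heart-field factor Isl1 from 6.68 ± 0.19 to 8.30 ± 0.19. Foxf1, a forkhead factor of splanchnic mesoderm, had a change of 1.59, Hand2 rose from 6.20 ± 0.12 to 7.70 ± 0.21, the smooth and cardiac muscle coactivator Myocd had a change of 1.48 and Gata5 one of 1.16. Bmp4 and Bmp5 are members of this list too.

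The other 12 members did not pass. Among them, Gata4, a zinc finger factor of heart and endoderm, went from 8.07 ± 0.08 to 7.79 ± 0.09 (adjusted p = 0.0504), and Nkx2-5, a homeobox factor of heart and foregut, from 7.20 ± 0.23 to 7.15 ± 0.11 (adjusted p = 0.81). With dim genes left out (those below the median signal of all genes), the median change of the list was 1.49. That filter uses the mean over all arrays, so a gene that rises can pass it through its rise. No stronger rise of the list is read from this value.

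Contractile genes had begun to rise. Of 27 heart muscle genes 6 rose and 0 fell at this step (median change 0.20), and in the next step, which shares the 48 h arrays, 17 rose and 0 fell, where 6.53% of all genes passed in either direction. Nexn, an actin-binding protein of the Z-disc, read 5.51, 5.53 and 5.77 at 24 h and 7.57, 7.59 and 7.20 at 48 h (change 1.85 ± 0.15, adjusted p = 4.9e-07). Tnnt2, cardiac troponin T, read 6.680, 6.870 and 6.499 at 24 h and 8.49, 8.56 and 7.83 at 48 h, and its mean at 72 h was 10.78 ± 0.04. The third array of 48 h is the lowest of its group for Tnnt2, and still above all arrays of 24 h. Myh7 and Tpm1, a myosin heavy chain and a tropomyosin, had changes of 1.24 and 1.02. Actc1 and Ttn, cardiac actin and titin, were at 5.89 ± 0.36 and 5.78 ± 0.32 at 48 h, with changes that did not pass (0.88 and 0.83, adjusted p = 0.0952 and 0.0506). They stood at 9.44 ± 0.03 and 9.04 ± 0.10 at 72 h. Of 14 smooth muscle genes 3 rose, among them Acta2 (1.52 ± 0.30), which stood at 10.98 ± 0.14 at 72 h.

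Few endothelial genes passed at this step. Of 25 endothelial genes 1 rose and 1 fell from 24 h to 48 h, where 13.6% of all genes passed. That count is not read as a result about endothelium. From 48 h to 72 h, a step that shares the 48 h arrays, 17 rose and 1 fell, where 6.53% of all genes passed. Etv2, the factor that starts the endothelial and blood lineages, rose by 0.66 ± 0.15 (adjusted p = 0.00568). Flt1, a VEGF receptor, fell from 8.42 ± 0.03 to 7.69 ± 0.09. Cdh5, the endothelial cadherin, was at 6.18 ± 0.08 and 6.25 ± 0.10, and at 9.29 ± 0.20 at 72 h. Of 17 genes of primitive blood 0 passed in limma, with 1 at an unadjusted p under 0.05, and their changes ran from -0.22 to 0.22.

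Of 21 genes of paraxial mesoderm 5 fell, 5 rose and 11 did not pass (median change -0.05). The falls were Dll3, Msgn1, Tbx6, Dll1 and Mesp2, which are known from presomitic mesoderm, of which Dll1 and Mesp2, at -0.49 and -0.39, passed in 11 and 10 of 14 alternative settings. The largest rises were those of genes that somites use: Meox1 (1.33 ± 0.22), Pax9 (1.33 ± 0.20) and Pax3 (1.21 ± 0.17). Pax3, which the neural crest list also holds, was at 6.19 ± 0.06, 7.39 ± 0.19 and 6.96 ± 0.44 at the 3 times.

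**Figure D3:**
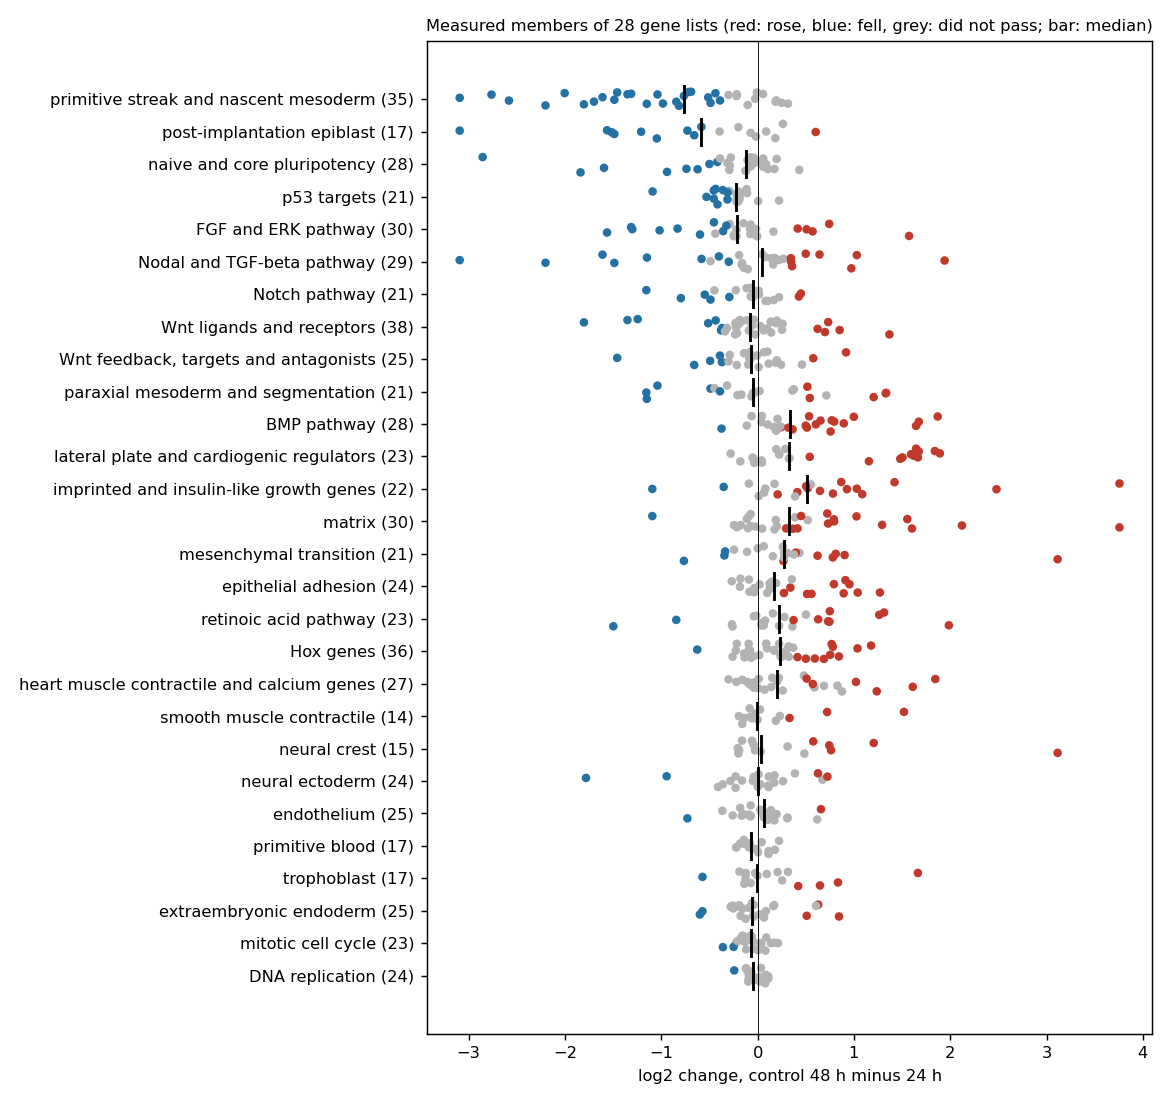
Log2 change from 24 h to 48 h in control arrays for the measured members of 28 gene lists, 1 dot per gene (red rose, blue fell, grey did not pass), with the number measured in brackets and the median as a black bar. The streak and epiblast lists lie furthest below 0 (medians -0.77 and -0.58) and the imprinted and insulin-like growth list furthest above (median 0.51).

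The largest rise of all genes was seen for Igfbp5, whose secreted product binds insulin-like growth factors. It read 5.76, 5.82 and 5.71 at 24 h, 9.58, 9.54 and 9.44 at 48 h, and 10.84, 10.70 and 10.79 at 72 h, so that no times overlap. The change to 48 h was 3.76 ± 0.09 (adjusted p = 8.29e-14), or 13.5-fold. Igf2, the growth factor itself and an imprinted gene, read 7.53, 7.38 and 7.24 and then 10.03, 9.88 and 9.69 (change 2.48 ± 0.17). Of 22 imprinted and insulin-like growth genes 13 rose and 2 fell, with a median change of 0.51. The cell cycle inhibitor gene Cdkn1c rose by 1.42, Mest by 1.09, the adaptor gene Grb10 by 1.03 and the zinc finger gene Plagl1 by 0.93 on the log2 scale. Igfbp3 went the other way, from 8.54 ± 0.08 to 7.45 ± 0.09.

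Matrix genes rose with them. Of 30 members 14 rose and 1 fell (median change 0.33), Igfbp5 and Igfbp3 being 1 member each way. Hapln1, which links hyaluronan to proteoglycans, read 4.41, 4.78 and 4.40 at 24 h and 6.84, 6.53 and 6.59 at 48 h (change 2.12 ± 0.17). Fbn2 had a change of 1.55, the hyaluronan synthase gene Has2 one of 1.29 and the proteoglycan gene Vcan one of 1.03. Postn, a matrix protein of valve and periosteum, went from 3.58 ± 0.28 to 5.18 ± 0.32 (adjusted p = 0.00726). Among the 15 largest rises, the basement membrane gene Frem1 and the matrix adhesion protein gene Vtn also belong here by function, with changes of 2.33 and 1.98, although the list did not hold them.

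Snail-family repressors moved in opposite directions. Snai1, the repressor active in the streak, went from 7.01 ± 0.09 to 6.25 ± 0.09 (change -0.76 ± 0.09, adjusted p = 3.53e-05). Snai2 read 6.09, 5.84 and 6.04 at 24 h and 9.29, 9.28 and 8.75 at 48 h, a change of 3.11 ± 0.22 (adjusted p = 9.65e-08) or 8.66-fold, the next largest rise after Igfbp5. Of 21 mesenchymal transition genes 7 rose and 3 fell, with Zeb1 and the mesenchymal homeobox gene Prrx1 up by 0.78 and 0.81 on the log2 scale. Cdh2 and Msn were the other falls, at -0.34 each, and Msn did not pass as the mean of its probe sets (-0.10, adjusted p = 0.445). Twist1 and Vim had changes of 0.31 and 0.16 that did not pass.

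Epithelial genes did not fall as streak genes did. Of 24 epithelial adhesion genes 10 rose and 0 fell (median change 0.17). Krt18, a keratin of simple epithelia, read 8.86, 8.88 and 8.90 at 24 h and 10.13, 10.16 and 10.16 at 48 h (change 1.27 ± 0.07, adjusted p = 9.92e-09). Its partner Krt8 had a change of 0.95, Krt19 one of 1.04, the tight junction gene Cldn4 one of 0.91 and the epithelial factor Grhl2 one of 0.79. Cdh1 (E-cadherin) was at 9.92 ± 0.02 and 9.89 ± 0.02, and Epcam at 9.42 ± 0.06 and 9.38 ± 0.07. Simple keratins are also made by trophoblast, and of 17 trophoblast genes 4 rose (Hand1, Gata3, Peg10 and Krt7) and 1 fell (Tfap2c). Krt7 passed in 11 of 14 alternative settings and Tfap2c in 10 of 13. The part of trophoblast cells in the keratin rise was not tested.

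More retinoic acid and Hox genes rose than fell. Of 23 retinoic acid genes 8 rose and 2 fell. Meis1, a Hox cofactor, read 6.14, 5.87 and 6.01 and then 8.33, 7.99 and 7.65 (change 1.99 ± 0.14). The retinoic acid receptor gene Rarb rose by 1.26 and the binding protein gene Crabp1 by 1.31 on the log2 scale. Cyp26a1, which degrades retinoic acid, went from 8.15 ± 0.01 to 7.31 ± 0.17, and the receptor gene Rxrg from 6.44 ± 0.27 to 4.94 ± 0.27. Of 36 Hox genes 10 rose and 1 fell: Hoxc8 (1.18), Hoxc6 (1.04) and Hoxb9 (0.84) had the largest rises, and Hoxd13 the fall (-0.63). Hoxb1, an early anterior member, was at 7.74 ± 0.26 and 7.48 ± 0.25, and at 6.42 ± 0.40 at 72 h.

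Lists of other cell types that the bodies could hold had members that passed too, where 13.6% of all genes passed. Shares near that one are not read as a result about a cell type. Of 25 extraembryonic endoderm genes 3 rose and 2 fell: Plat (0.85), Rbp4 (0.63) and Ttr (0.51) were up, and the absorptive receptor genes Cubn (-0.60) and Amn (-0.57) down. Ttr passed in 10 of 14 alternative settings. Of 24 neural ectoderm genes 2 rose (Irx3 and Sox21) and 2 fell (Olig2 and Nes). Olig2 and Olig1, which are known from oligodendrocyte and motor neuron precursors, were among the 15 largest falls at -1.78 and -1.80. Olig2 read 7.24, 7.14 and 7.46 at 24 h and 5.75, 5.48 and 5.27 at 48 h. Of 15 neural crest genes 5 rose, led by Snai2, which mesoderm also uses, and including Sox9 and Erbb3 (0.74 and 0.76). Sox10 and Foxd3, which define the crest more narrowly, had changes of -0.04 and -0.20 that did not pass. Of 15 germ cell genes 1 rose (Kit) and 2 fell, and of 9 genes of the 2-cell-like state 0 passed in limma, with 2 at an unadjusted p under 0.05.

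Counts for genes of growth, metabolism and stress stand beside 13.6% of all genes that passed. Of 21 p53 targets 9 fell and 0 rose (median change -0.22). For 19 of the 21 all 48 h arrays lay below all 24 h arrays, where 32.7% of all genes had no overlap in either direction. The proapoptotic gene Pmaip1 (Noxa) went from 8.45 ± 0.06 to 7.36 ± 0.08 (change -1.09 ± 0.09, adjusted p = 3.52e-07), while Perp and Mdm2 had changes of -0.45 and -0.36. The cell cycle inhibitor gene Cdkn1a was at 9.89 ± 0.06 and 9.60 ± 0.08 (adjusted p = 0.0531). Of 23 mitotic genes 2 fell (Ccne1 and Aurka, -0.36 and -0.25) and of 24 replication genes 1 (Mcm10, -0.24, which passed in 11 of 14 alternative settings). Glucose transporter genes rose, Slc2a1 from 11.12 ± 0.08 to 11.84 ± 0.03 and Slc2a3 from 10.42 ± 0.05 to 11.10 ± 0.04, as did Vegfa (0.70), among 24 genes of glycolysis and hypoxia of which 3 rose and 3 fell. The 3 falls of that list were Ndrg1 (-0.48), Ldha (-0.35) and Hk2 (-0.31), and Ldha passed in 11 of 14 alternative settings. Of 18 cholesterol synthesis genes 0 rose and 2 fell, and of 21 genes of the unfolded protein and stress response 1 rose and 4 fell. A histone list made by symbol, which takes in variants and 1 gene that is no histone, had 3 up and 2 down of 36.

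The remaining large changes fall outside these lists. Cpm, a membrane carboxypeptidase, read 7.35, 7.03 and 7.34 at 24 h and 9.90, 9.81 and 9.64 at 48 h (change 2.54 ± 0.09). Rgs5, a regulator of G protein signalling known from pericytes, had a change of 2.45 ± 0.23, Capn6, a calpain without protease activity, one of 2.40 ± 0.11, and the netrin receptor gene Unc5c one of 2.03 ± 0.14. Asb12 rose from 3.60 ± 0.13 to 5.69 ± 0.31, and by 0.39 on the log2 scale with its other probe set. Among falls, the uridine phosphorylase gene Upp1 went from 8.84 ± 0.17 to 7.11 ± 0.05 and the G protein subunit gene Gng3 from 7.84 ± 0.21 to 6.22 ± 0.20. Mup6 read 7.15, 6.77 and 7.18 and then 5.45, 4.70 and 4.26. It belongs to a family of near-identical genes whose probes may be shared, so the name of this signal is uncertain.

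Some genes had a level at 48 h that lay off the line between 24 h and 72 h. The 48 h level differed from the mean of the 2 neighbouring times for 556 genes (2.51%), 369 above and 187 below. Of these, 195 (0.879% of genes) had all 3 arrays of 48 h above all 6 arrays of 24 h and 72 h, and 68 (0.307%) had them below. Without the first control array of 48 h the 556 became 285, and without the second 321. In the thalidomide arrays, whose means did not enter this choice but whose spread did, the change from 24 h to 48 h was above 0 for 181 of the 195 and below 0 for 48 of the 68. The thalidomide change went the same way for 1453 of all 1536 genes that rose in control. It did so for 1369 of all 1487 that fell, a larger share than among the dips. From 24 h to 48 h in control, 175 of the peaks rose and 48 of the dips fell under the test. Nothing particular to the peaks or dips is read from these counts.

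The clearest peak was that of Adgrg1, an adhesion receptor gene. It read 6.41, 6.25 and 6.33 at 24 h, 7.34, 7.30 and 7.34 at 48 h, and 6.67, 6.69 and 6.53 at 72 h. Its 48 h level was 0.85 ± 0.06 above the mean of the other times (adjusted p = 7.04e-07). Greb1l, a gene required for kidney formation, peaked at 9.62 ± 0.01 between 8.46 ± 0.13 and 9.19 ± 0.08. Rubie, a long noncoding RNA near Bmp4, was at 4.45 ± 0.12, 5.65 ± 0.04 and 5.04 ± 0.13, and Bmp5 was at 6.90 ± 0.14, 8.54 ± 0.04 and 8.23 ± 0.04. Amph and Krt18 stayed near their 48 h level at 72 h (8.64 ± 0.13 and 10.06 ± 0.03), and Lhfpl2 was lower at 72 h (6.72 ± 0.11) than at 24 h (6.95 ± 0.06).

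Among the dips with the smallest adjusted p, Eng, a TGF-beta co-receptor of endothelium, read 7.47, 7.43 and 7.39 at 24 h, 6.08, 6.28 and 6.49 at 48 h, and 6.94, 7.19 and 7.25 at 72 h. Its mean dipped to 6.28 ± 0.21 between 7.43 ± 0.04 and 7.13 ± 0.16 (adjusted p for the distance from the mean of the other times = 0.000378). Igfbp3 was at 8.54 ± 0.08, 7.45 ± 0.09 and 7.89 ± 0.08, and the ERK phosphatase gene Dusp6 at 9.72 ± 0.06, 8.89 ± 0.11 and 9.13 ± 0.13. Adamts9, a matrix protease gene, was at 8.27 ± 0.07, 7.74 ± 0.08 and 8.49 ± 0.09, and Foxi3 and Pald1 had the same shape. Stab1 and Mrc1, scavenger receptor genes of sinusoidal endothelium and macrophages, had changes from 24 h to 48 h that did not pass (-0.20 each, adjusted p = 0.301 and 0.203) and stood at 6.65 ± 0.21 and 5.22 ± 0.06 at 72 h.

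**Figure D4:**
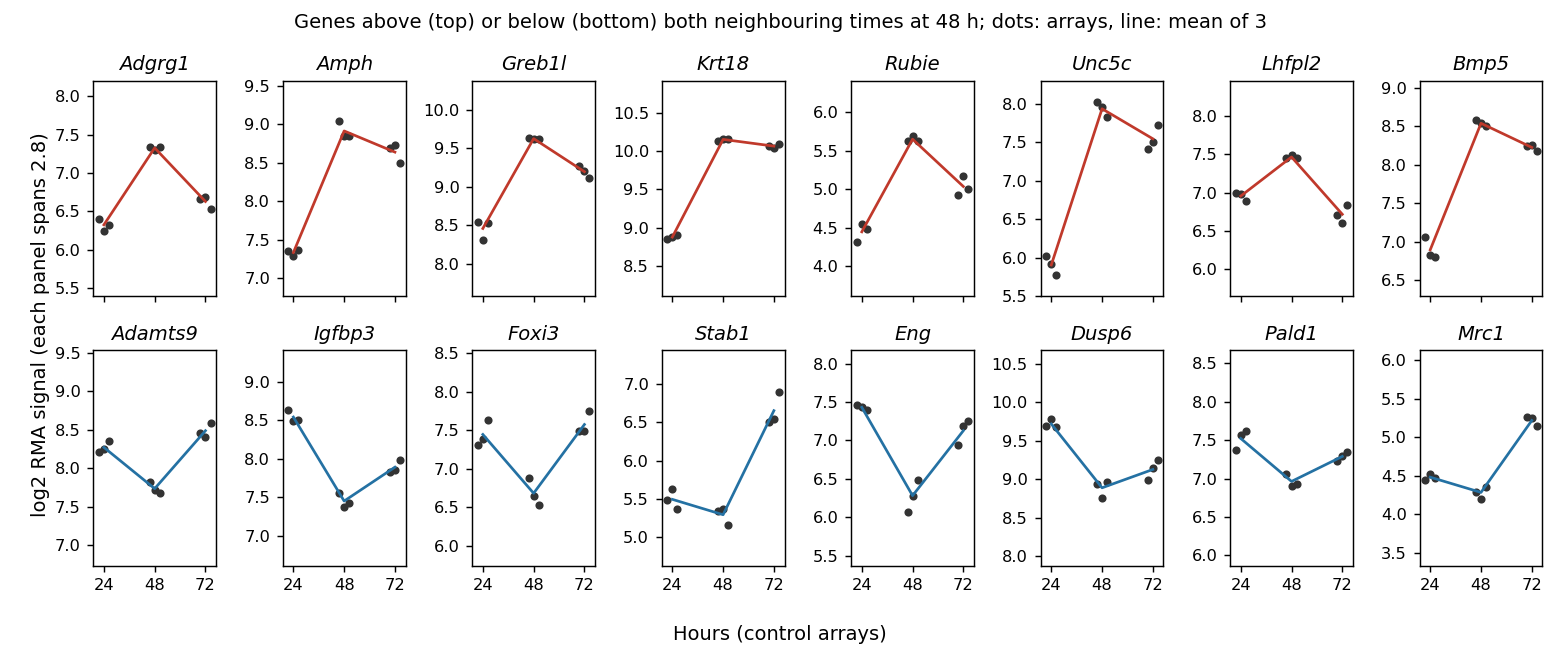
Log2 RMA signal of 8 genes whose 48 h arrays lay above (top) and 8 whose 48 h arrays lay below (bottom) those of both other times, in each control array (dots) with the mean of 3 as a line, each panel spanning 2.8 log2 units. Adgrg1 peaks at 7.33 between 6.33 and 6.63, and Eng dips to 6.28 between 7.43 and 7.13.

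The thalidomide arrays give the same step in other arrays. No array is shared, although the spread of each gene was estimated from all 18 arrays together, which makes genes of small spread easier to call in both. A tag for re-analysis stands in the titles of all 9 control arrays and of the 3 thalidomide arrays of 24 h, and not in those of 48 h, so in the thalidomide step the tag and the time cannot be told apart, whereas the control step lies within the tag. From 24 h to 48 h 2236 genes passed in thalidomide arrays (10.1%), 1268 up (5.72%) and 968 down (4.36%).

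Of the 1536 genes that rose in control, 883 (57.5%) rose in thalidomide arrays and 1 fell. They are 69.6% of the genes that rose there. Of the 1487 that fell in control, 644 (43.3%) fell and 2 rose, and the 644 are 66.5% of those that fell there. Among genes that changed at least 2-fold in control, 129 of 138 rises and 74 of 83 falls passed again. In the streak list, 22 of the 24 genes that fell in control fell in thalidomide arrays, and in the lateral plate list 10 of 11 that rose did so again. The share was smaller in some other lists. Of the genes called in control, 10 of 17 of the BMP list, 10 of 16 of the Nodal and TGF-beta list, 6 of 9 p53 targets and 2 of 7 ribosomal protein genes passed in the same direction. Nanog had a change of -2.10 ± 0.25 there, Mixl1 one of -2.51 ± 0.21, Igfbp5 one of 3.10 ± 0.09 and Snai2 one of 3.08 ± 0.22.

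No gene's step differed between thalidomide and control arrays after adjustment in limma, where 1701 genes had an unadjusted p under 0.05 and the smallest adjusted p was 0.201. The 4 smallest p-values were those of Gm16675, Olfr1218, Rps15 and Kctd12b. Kctd12b read 4.29, 4.73 and 4.44 at 24 h and 5.52, 5.39 and 5.50 at 48 h in control (change 0.98 ± 0.11), beside a change of 0.14 ± 0.11 in thalidomide arrays. Gm16675, a predicted locus, had changes of 0.25 and -0.32, and Olfr1218, an olfactory receptor gene, of 0.39 (adjusted p = 0.0806) and -0.78. Gm16675 passed the control step in 7 of 13 alternative settings. Rps15, a ribosomal protein gene, had changes of -0.65 and 0.28, and its name is uncertain as such genes have near-identical copies.

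The microRNA genes of the miR-302 cluster had smaller changes in thalidomide arrays than in control, and none of these differences passed. Mir302d, which fell by 1.62 in control, read 4.62, 5.49 and 5.79 at 24 h and 5.24, 5.49 and 5.49 at 48 h in thalidomide arrays, and these times overlap. The difference of the steps was 1.73 (unadjusted p = 0.000547, adjusted p = 0.282), which did not pass. Mir302a, Mir302b, Mir302c and Mir367 had thalidomide changes of -0.30, -0.07, -0.34 and -0.08. The first thalidomide array of 24 h was the lowest of its group for all 5 genes.

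**Figure D5:**
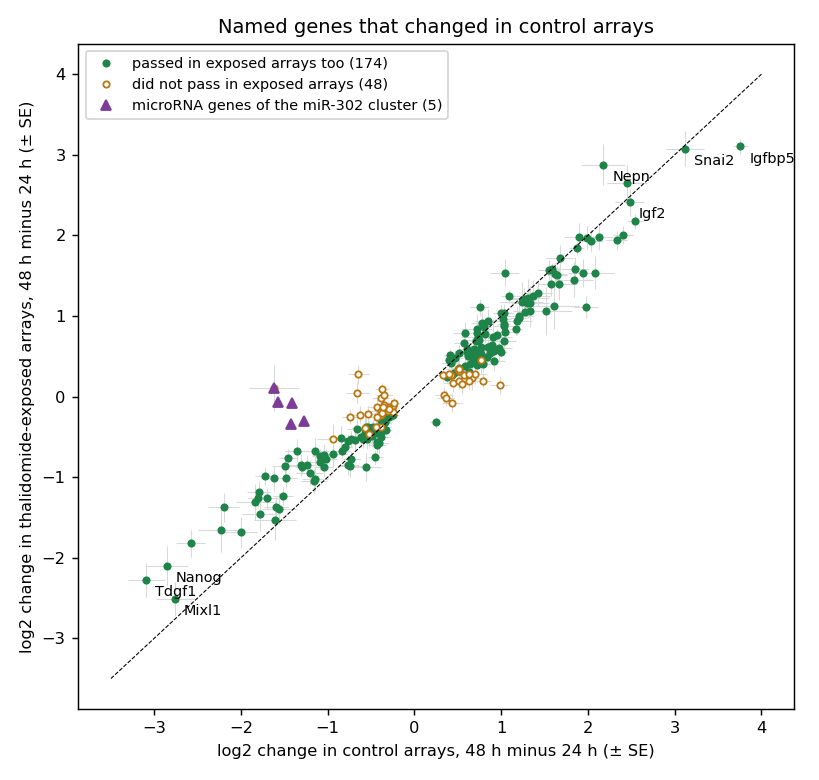
Log2 change from 24 h to 48 h in thalidomide arrays (vertical axis) against that in control arrays (horizontal axis), with SE bars, for 222 named genes that passed in control, and the line of equal change dashed. Filled green points (174) passed in thalidomide arrays too, open points (48) did not, and the 5 microRNA genes of the miR-302 cluster (triangles) lie above the line, between -1.28 and -1.62 in control.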

How the data were processed

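RNA of the 18 samples was hybridised to Affymetrix arrays. The deposited values are log2 signals that the authors obtained with RMA (background adjustment, quantile normalization and probe summary) which the submitters' processing notes name with Affymetrix Expression Console 1.3. Quantile normalization gives the arrays like distributions, so changes are relative to other probe sets. Detection calls were not used, and the number of arrays limits the precision. No genome build for the probe sets is given in the sources used here.

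Of 41345 probe sets, 23521 had a single gene symbol in GEO's platform annotation, 1814 had several and 16010 were not listed. The probe set with the highest mean signal stood for each of 22180 genes, of which 1082 had several. In limma 3.58.1 (R 4.3.3), 1 mean per group was fitted to all 18 arrays (12 residual degrees of freedom, prior 4.35), contrasts were moderated with eBayes, and p-values were adjusted over all genes by the Benjamini-Hochberg method at 0.05. The fit was tested on simulated data. With 3 against 3 arrays an exact permutation test cannot go below 0.1, so none was used.

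The comparison, its members and the gene lists were chosen with earlier results of these data known. Named genes are the 15 largest rises and 15 largest falls with non-overlapping arrays, up to 6 per list and direction, the 8 clearest peaks and 8 clearest dips, and the 4 smallest p-values for a difference in step, without predicted loci where the rule says so. Other genes that define a list or pathway were added after their values were seen. Sequences are from RefSeq's tables for GRCm38.p6. Alternatives were leaving out each array, fewer arrays in the fit, array weights, a trended and robust prior, cyclic loess, a filter at the median signal, the mean of probe sets, all probe sets and the replicate number as a block.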

Additional observations from a re-analysis of the deposited data

How the results depend on the processing

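The count of genes that passed from 24 h to 48 h was 3023. It was 2026 to 2643 when 1 array of these groups was left out and 2385 to 3602 under the other settings. The 556 genes off the line between 24 h and 72 h became 285 without control 48 h replicate 1 and 321 without control 48 h replicate 2 (range 285 to 500 over the arrays left out), and 411 to 800 otherwise. The cause was not tested. The 1527 genes called in the same direction in control and thalidomide arrays were 1145 to 1409 with an array left out and 1374 to 1982 otherwise. The count of genes whose step differed was 0 in every setting run. With the replicate number as a block 2947 genes passed, 2818 of them among the 3023. Samples of the same number did not deviate together (r = -0.008, 0.052 and -0.023), so the numbers were not taken as pairs, and only the samples of number 2 correlated best with their own number.

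Named genes were followed in every setting except that of all probe sets. Of 239 named genes that passed, 199 passed in each of these settings that held them. The other 40 lost the call in at least 1, 19 of them in 1 to 3 settings. No named gene that passed changed direction in these settings. Of the list medians, 13 moved by over 0.1, of which the largest was that of the lateral plate list, from 0.33 to 1.49 with dim genes left out. The filter uses the mean over all arrays, so a gene that rises can pass it through its rise. Genes that rose were 50.8% of those that passed, 49.1% under cyclic loess and 56.3% over all probe sets. Low signals limit what can be read from dim genes such as Postn and the microRNA genes.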

Other observations

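Probe sets that the annotation does not list moved more often up than down. Of 16010 such probe sets, 474 were higher at 48 h and 164 lower in the limma fit over all probe sets, and 99 and 7 of these reached a change of 2-fold. Among listed probe sets the split was 1286 higher and 1201 lower. What these probe sets measure is not named here.

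Probe sets of the same gene did not always move together. Gata3 changed by 0.83 with its brightest probe set and by -0.03 with another, Irx3 by 0.73 and 0.03, Sox21 by 0.63 and 0.07, Lgr5 by 0.92 and 0.13, and Dll1 by -0.49 and 0.00.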
